A study of Mus musculus with 5 samples.

Results

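The genes described here are the constitutive subunits and regulators of the proteasome, the protein-degrading complex that every cell carries. They were chosen by symbol, as the rows of the FPKM table whose symbol is Psm followed by a letter from a to g and a digit, without the immunoproteasome subunits Psmb8, Psmb9 and Psmb10 and without pseudogene symbols ending in -ps. The rule found 47 of 49671 genes, and all 47 were also in the count table of 24984 genes. One of them, Psmc3ip, matches by its letters alone, because it encodes a factor of meiotic DNA recombination, which leaves 46 proteasome genes.

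Myeloid cells for RNA sequencing were taken from corpus callosum lesions at 10 days post-lesion (dpl). Wild-type (WT) male C57BL/6J mice aged 10 weeks had received 1% lysolecithin (LPC), which dissolves myelin around axons, in a volume of 2 µl, and no unlesioned group was used here. Within the CD11b+ Ly6G- CD3- gate, CD45hi cells gave 2 libraries and CD45lo cells, the microglia, gave 3. The CD45hi cells are called monocytes below, as in the paper, while the sample labels name them macrophages derived from monocytes. Libraries are numbered in the order of their labels, which tie no library to a mouse, although the paper counts its replicates in mice per group, so p-values measure only the spread between these libraries. All libraries were made from amplified cDNA of very small amounts of RNA. The paper reports far fewer monocytes than microglia per mouse on average, and less RNA sequenced from monocytes. Input therefore differed along with cell type, and their parts cannot be told apart here.

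The proteasome is built from a hollow core particle with rings of alpha and beta subunits, and from a regulatory particle that recognises ubiquitin-tagged proteins, unfolds them and feeds them into the core. Separate activators and an inhibitor bind the ends of the core, and dedicated chaperones assemble the parts. In myeloid cells the complex clears damaged proteins and yields the peptides shown on MHC class I molecules. Its subunits are needed together in fixed proportions, so their transcripts are usually present at comparable levels in a cell.

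The libraries differed before any gene was compared. Total gene counts were 3417150 and 6514611 in monocytes and between 5890081 and 9021700 in microglia. Genes with 10 or more counts numbered 1392 and 4230 in monocytes, against 11653, 11493 and 5994 in microglia, so microglia library 3 stood apart from the other microglia libraries. Mitochondrially encoded genes held 39.9% and 28.5% of counts in monocytes and 11.1%, 39.0% and 17.6% in microglia. Markers shared by myeloid cells summed to 3960 and 13800 counts scaled to a common library total (CPM) in monocytes and to 14700 to 20500 CPM in microglia, with all 7 detected in every library. Among classical monocyte markers, Ly6c2 and Chil3 had no count in any library and Ccr2 had none in monocytes. The list summed to 2340 and 0.921 CPM in monocytes, with Vcan making up all of the larger value, beside 0 to 7.54 CPM in microglia. The 6 microglia markers summed to 201 and 1850 CPM in monocytes and to 4350 to 11900 CPM in microglia. Among markers of other cells, Cd79a and the T cell genes were at 0 throughout, while Ighm gave 7.61 and 529 CPM in monocytes and 431 to 479 CPM in microglia. The 6 oligodendrocyte markers summed to 1.76 and 1.07 CPM in monocytes and to 161, 74.4 and 9.34 CPM in microglia. The part that cell and RNA input, depth, mitochondrial share and these markers play in the proteasome values below was not tested.

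Fewer proteasome genes reached 10 counts in monocytes than in microglia libraries 1 and 2, which held nearly the whole complex. Members with 10 or more counts numbered 5 and 15 in monocyte libraries 1 and 2, beside 42, 41 and 18 in microglia libraries 1, 2 and 3. Psmd11, Psmd12, Psme2 and Psme2b reached 10 counts in both monocyte libraries, which leaves Psma3 alone in monocyte library 1, and only Psmd11, Psme2 and Psme2b did so in all 5 libraries. At a single count, 28 and 37 of the 47 members were seen in monocytes and 43, 45 and 38 in microglia. The mean number with a count was also computed, without draws, for random thinning of every library to 3417150 counts. It was 28 and 32.2 in monocytes and 43, 44 and 34.2 in microglia. Psma8, Psmb11, Psmg1 and Psmg3 stayed under 10 counts in every library, and Psmg3, a chaperone of core assembly, had none at all. Psma8 is known as the alpha subunit of testis and Psmb11 as the beta subunit of the thymic cortex.

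Beside all genes tested, the members were detected about as often in 4 of the 5 libraries and less often in microglia library 3. Of the 47 members, 40 passed edgeR's filter on low counts and were tested, and all 40 had 10 or more counts in microglia libraries 1 and 2, so they entered the test through microglia. Among these 40, those with 10 or more counts made up 12.5% and 37.5% in monocytes and 100%, 100% and 45.0% in microglia. Among all 10105 genes tested the shares were 13.1% and 40.4% in monocytes and 97.7%, 97.6% and 56.9% in microglia. The median CPM of the tested members was 0.293 and 0.614 in monocytes and 25.6, 15.4 and 0.679 in microglia, beside medians over all genes tested of 0.293 and 0.768 CPM in monocytes and 27.0, 17.6 and 4.07 CPM in microglia. In bulk libraries such as these, fewer cells of a type and less RNA per cell cannot be told apart.

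**Figure D1:**
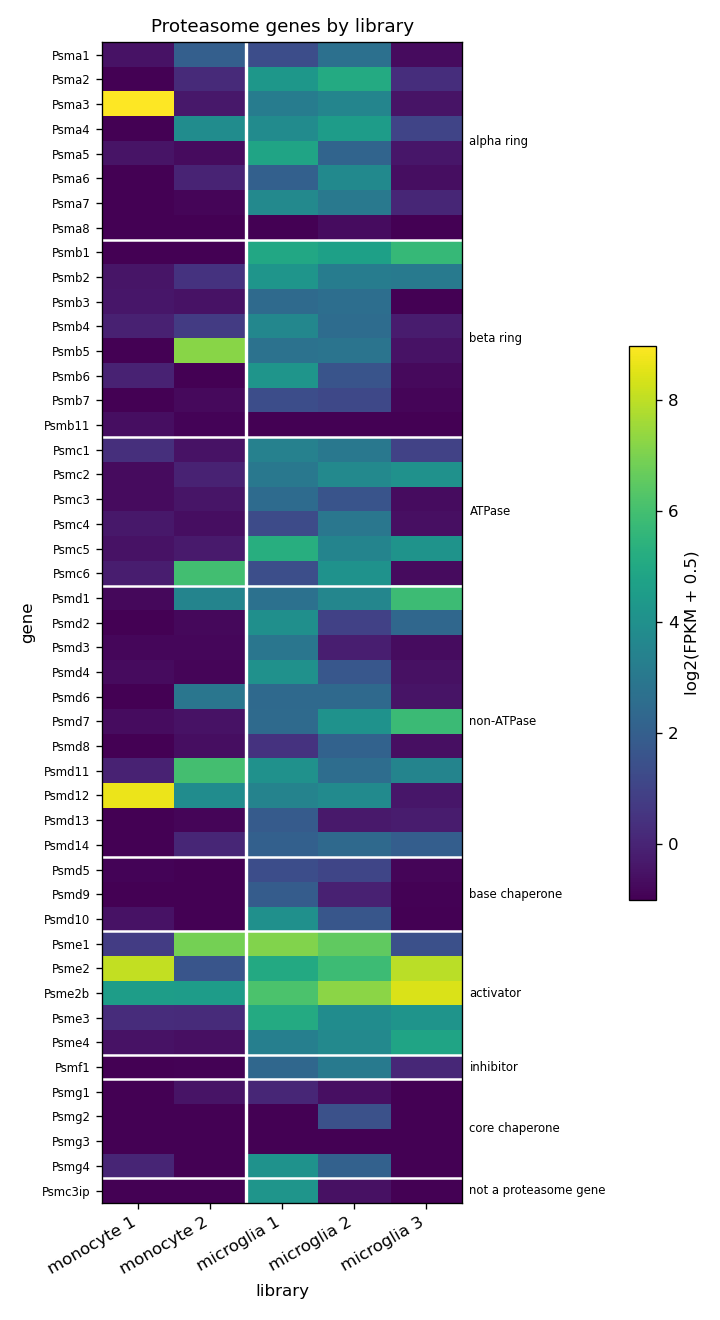
Level of every member in each library, with the colour giving log2(FPKM + 0.5), the 2 monocyte libraries left of the 3 microglia libraries and white lines between subcomplexes. Microglia libraries 1 and 2 show signal in nearly every row, while monocyte library 1 shows it mainly in Psma3, Psmd12 and Psme2 and monocyte library 2 in Psmb5, Psme1, Psmd11 and Psmc6.

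The summed signal of the complex did not separate the groups, and a handful of genes held most of it in each monocyte library and in microglia library 3. The FPKM of all 47 members summed to 1207 and 471.4 in monocytes and to 672.8, 620.5 and 859.3 in microglia, which gave means of 839 ± 520 (SD, n = 2) and 718 ± 126 (SD, n = 3), a ratio of 1.17 that was 0.657 without monocyte library 1 and 1.68 without monocyte library 2. Other scalings gave 1.51 (CPM), 1.85 (CPM without mitochondrial genes) and 0.976 (share of the FPKM of all genes), so its direction depended on the scaling. The 3 most abundant members held 98.9% and 71.6% of all member counts in monocytes, against 33.1%, 33.6% and 61.9% in microglia. By FPKM the top 3 held 97.5% and 69.4% in monocytes and 36.1%, 48.5% and 74.4% in microglia, so the groups overlapped. In monocyte library 1 they were Psma3, Psmd12 and Psme2, and in monocyte library 2 by FPKM they were Psmb5, Psme1 and Psmd11, with no gene in common. With each library's own 3 most abundant members by FPKM left out, a choice made after seeing the data, the other 44 summed to 30.6 and 144.1 FPKM in monocytes and to 429.8, 319.3 and 220.2 FPKM in microglia, a ratio of 0.27. The members were left out by the same values that were summed, which brings about the fall in part. No such ratio is given for all genes. The median member was at 0.112 and 0.202 FPKM in monocytes and at 7.43, 5.64 and 0.219 FPKM in microglia, so microglia library 3 lay close to the monocytes by this measure.

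**Figure D2:**
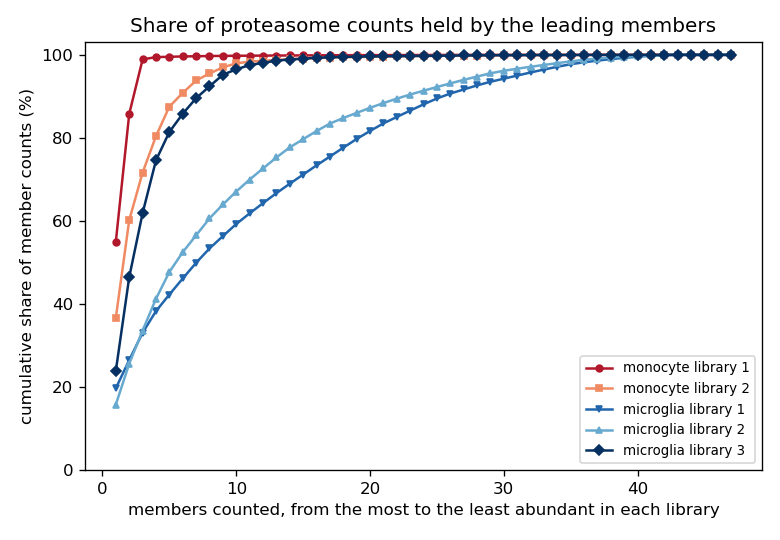
Cumulative share of all member counts (%) against the number of members counted, from the most to the least abundant in each library. The 3 leading members held 98.9% and 71.6% in monocytes, against 33.1%, 33.6% and 61.9% in microglia. By FPKM, not drawn, microglia library 3 (74.4%) lay above monocyte library 2 (69.4%).

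The 14 subunits that form the standard core particle, Psma1 to Psma7 and Psmb1 to Psmb7, were at uneven levels in monocytes and in microglia library 3. Those with 10 or more counts numbered 1 and 4 in monocytes, against all 14 in microglia libraries 1 and 2 and 4 in microglia library 3. One gene held 99.6% (Psma3) and 87.1% (Psmb5) of the core FPKM in the monocyte libraries, against 17.5% (Psmb1), 22.0% (Psma2) and 80.1% (Psmb1) in microglia libraries 1, 2 and 3. The SD of log2(FPKM + 0.5) over the 14 subunits was 2.61 and 2.31 in monocytes and 1.19, 1.13 and 1.87 in microglia. As a description over the 46 proteasome genes, which share their library, Spearman's rho of FPKM was 0.338 between the monocyte libraries, 0.50 to 0.711 between microglia libraries and 0.221 to 0.628 between a monocyte and a microglia library.

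The edgeR quasi-likelihood test, with Benjamini-Hochberg adjustment over 10105 genes, called 0 of the 40 tested members higher and 0 lower in monocytes at an adjusted p under 0.05. The background was low too, with 0.0594% of all genes tested called higher and 0.0% called lower. At an unadjusted p under 0.05, 5 members were higher (Psmd12, Psma3, Psmb5, Psmc6 and Psme2) and 1 was lower (Psmb1), where all genes gave 8.52% higher and 3.35% lower. The limma-voom method called 1 member higher, Psmd12, and 0 lower, against backgrounds of 0.317% higher and 0.0% lower. DESeq2 called 5 members higher, Psma3, Psmb5, Psmc6, Psmd11 and Psmd12, and 0 lower, against 10.1% higher and 1.03% lower among all genes. It gave no adjusted p for 26 of the 40 members and for 55.8% of all genes tested, so these could not be called. At an unadjusted p under 0.05 by DESeq2, those 26 include 2 that were lower, Psmb1 and Psmf1, and also Psmd6, which was higher. The log2 fold change of monocytes over microglia was above 0 for 16 members and below 0 for 24, and its median was -1.06 beside -1.11 over all genes tested. Without monocyte library 1 edgeR called 1 member higher, Psmb5, with 2.61% of all genes called, and the median was -2.76 over the members and -3.51 over all genes. Without monocyte library 2 it called 2, Psma3 and Psmd12, with 2.51% of all genes called.

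Read from CPM by library total, 21 of the 47 members lay below all microglia libraries in each of the monocyte libraries, 2 lay above them in each, and 24 overlapped. Among the tested members 50.0% were lower in both, beside 48.0% of all genes tested, and 2.5% were higher in both, beside 0.673% of all genes. For 8 of the 21 the lowest microglia library held under 10 counts. The other 13 made up 32.5% of tested members, beside 35.0% of all genes tested. An exact permutation test of 3 against 2 libraries cannot give a p under 0.1, so these patterns are descriptions. Without monocyte library 1, 6 members were higher than every microglia library (12.3% of all genes), and without monocyte library 2, 4 were (3.31% of all genes). Psmb11, which was not tested, is among the 6 and the 4, while the shares are over the genes tested. After scaling by TMM factors, 11 members, with the untested Psmd13 among them, were lower in both (21.5% of all genes tested). Under these factors 2 members, with the untested Psmb11 among them, were higher in both (4.91% of all genes tested). Those factors were 0.0929 and 0.611 in monocytes and 3.76, 2.73 and 1.71 in microglia, and under them Psmc1, an ATPase of the regulatory particle, was lower by CPM in both monocyte libraries and yet had a fitted log2 fold change of 0.92 ± 2.23 (SE). With library totals in place of TMM, the median log2 fold change moved to -4.73 over all genes and to -4.29 over the tested members.

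**Figure D3:**
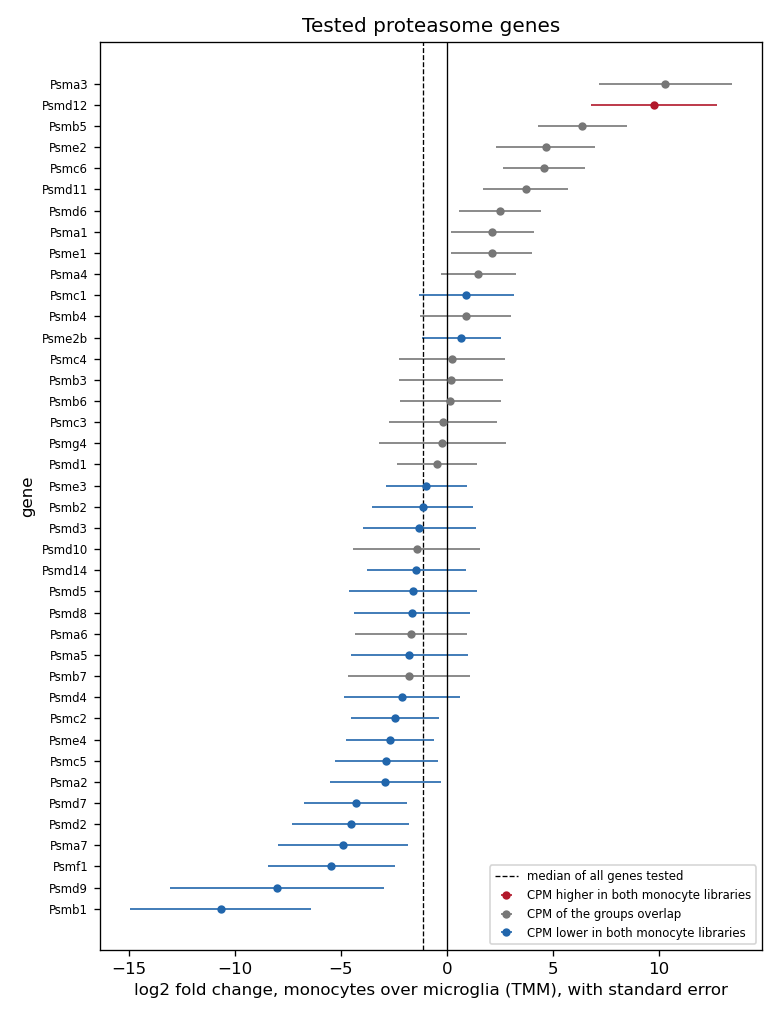
Log2 fold change of monocytes over microglia for the 40 tested members, with standard errors as bars, TMM-scaled and ordered by size; the dashed line marks the median of all genes tested, -1.11. Red, grey and blue points mark members whose CPM was higher in both monocyte libraries, overlapped or was lower in both, and Psmd12 is the only red point.

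Psma3, Psmd12, Psmb5 and Psmc6 were the 4 members with the smallest edgeR p among those higher in monocytes, and DESeq2 called all 4, so the sequence before their start sites is shown. Proteasome genes as a class are known to be driven by Nfe2l1, which binds the antioxidant response element. The stretches below run 5′ to 3′ on the gene's strand (RefSeq, GRCm38.p6). Positions count back from the RefSeq start site, and each stretch begins at -250 and stops before the first exon base that GENCODE vM21 annotates, at -3 for Psma3, -45 for Psmd12, -28 for Psmb5 and -37 for Psmc6. Capitals mark TGACNNNGC or TGAGNNNGC, letters of that element, or CCAAT, the box bound by NF-Y, each on either strand.
Psma3, chr12:70974373-70974620, plus strand: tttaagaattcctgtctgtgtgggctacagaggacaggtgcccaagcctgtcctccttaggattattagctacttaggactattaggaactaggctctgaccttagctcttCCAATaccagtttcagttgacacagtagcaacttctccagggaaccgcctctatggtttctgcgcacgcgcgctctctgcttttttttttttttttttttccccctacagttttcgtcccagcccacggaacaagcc
Psmd12, chr11:107479278-107479483, plus strand: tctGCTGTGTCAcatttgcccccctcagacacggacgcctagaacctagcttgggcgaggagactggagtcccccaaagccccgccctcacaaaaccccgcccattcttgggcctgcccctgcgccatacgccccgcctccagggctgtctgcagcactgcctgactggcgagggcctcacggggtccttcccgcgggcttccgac
Psmb5, chr14:54618023-54618245, minus strand: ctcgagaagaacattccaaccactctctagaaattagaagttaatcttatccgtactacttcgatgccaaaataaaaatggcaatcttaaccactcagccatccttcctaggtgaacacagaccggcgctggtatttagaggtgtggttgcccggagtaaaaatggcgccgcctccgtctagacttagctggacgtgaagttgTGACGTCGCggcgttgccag
Psmc6, chr14:45329574-45329787, plus strand: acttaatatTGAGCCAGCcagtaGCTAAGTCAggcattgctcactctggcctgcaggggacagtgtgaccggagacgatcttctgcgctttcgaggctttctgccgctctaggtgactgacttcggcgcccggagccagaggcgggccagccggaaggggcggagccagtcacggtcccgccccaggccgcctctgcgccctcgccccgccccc

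In these stretches TGACNNNGC stood from -47 to -39 before the start of Psmb5, from -227 to -219 before Psmc6 and from -247 to -239 before Psmd12, and Psma3 had only CCAAT, from -139 to -135. Of the 47 members 39 had an entry, with 42 promoters between them, and the 250 bases before the start were searched on both strands. TGACNNNGC was found before Psmb5, Psmb6, Psmc6, Psmd12 and Psmd9, in 5 of the 42 promoters (11.9%), beside 10.2% of all 32851 promoters. TGAGNNNGC was in 11 (26.2%), beside 14.4% of all. CCAAT was in 14 (33.3%), beside 33.8% of all, and GGAAGT, the letters read by Ets factors, was in 17 (40.5%), beside 19.7% of all. TTCNNNGAA, the letters read by Stat factors, was in 1 (2.38%), beside 7.02% of all. A match is a description of letters and no measure of binding. Psma8, Psmb1, Psmb2, Psmb7, Psmc3, Psmd3, Psmd7 and Psmg2 had no entry.

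Of the 8 alpha subunits, which form the outer rings of the core and its gate, 3 were lower in both monocyte libraries and none was higher. Of all genes tested, 48.0% were lower in both. Psma3 (ENSMUSG00000060073, chr12:70974621-70996347) gave 6671 and 7 counts in monocytes and 222, 393 and 5 counts in microglia. Its level was 501 and 0.276 FPKM in monocytes, against 8.59, 11.2 and 0.218 FPKM in microglia. Monocyte library 1 was therefore far above every other library, while monocyte library 2 lay beside microglia library 3 at the low end and the groups overlapped. Its log2 fold change was 10.31 ± 3.14 (SE; edgeR quasi-likelihood test, Benjamini-Hochberg adjusted p = 0.107) and was -2.55 without monocyte library 1. Psma4 reached 13.99 FPKM in monocyte library 2 and was at 0 in monocyte library 1, against 13.4, 22.2 and 1.58 FPKM in microglia. Psma2, Psma5, Psma6 and Psma7 stayed at or under 0.650 FPKM in both monocyte libraries, against 3.66 to 33.5 FPKM in microglia libraries 1 and 2 and 0.138 to 0.719 FPKM in microglia library 3.

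Among the 8 beta subunits, which hold the active sites, 2 were lower in monocyte libraries 1 and 2 alike and 1 was higher in them. Over all genes tested the shares were 48.0% lower and 0.673% higher. The higher one was Psmb11, on 2 counts and 1 count in monocytes against none in microglia, which is within the limit of 3 counts that a count of 0 allows. Psmb1, a beta subunit without an active site (ENSMUSG00000014769, chr17:15475021-15499751), had no count in either monocyte library, against 215, 230 and 306 counts in microglia, or 31.3, 24.6 and 50.1 FPKM. It had the smallest SD relative to its mean of the 14 core subunits within microglia, 35.3 ± 13.2 FPKM (SD, n = 3). By library totals it was at least 115-fold lower in monocytes, taking 3 counts over both monocyte libraries as the floor. That bound covers counting error only and fell to 94.1-fold without microglia library 3. It also includes the lower level of genes in general, whose median log2 fold change with library totals was -4.73. The adjusted p of Psmb1 was 0.245 by the edgeR quasi-likelihood test with Benjamini-Hochberg adjustment. Its fitted log2 fold change of -10.68 ± 4.28 (SE) depends on the prior count. Psmb2 was also lower in both, at 0.243 and 0.892 FPKM in monocytes and 17.9, 8.56 and 8.18 FPKM in microglia.

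The 3 catalytic subunits are given side by side, and differences between them were not tested. Psmb5, which carries the chymotrypsin-like activity (ENSMUSG00000022193, chr14:54614119-54618022), had 0 and 826 counts in monocytes and 36, 52 and 1 counts in microglia, or 0 and 146 FPKM against 6.23, 6.62 and 0.195 FPKM. Monocyte library 2 was above every microglia library and monocyte library 1 below all of them, and the log2 fold change was 6.39 ± 2.09 (SE; edgeR quasi-likelihood test, Benjamini-Hochberg adjusted p = 0.130) and -7.21 without monocyte library 2. Psmb6, with the caspase-like activity, was at 0.469 and 0 FPKM in monocytes and at 17.9, 2.55 and 0.0907 FPKM in microglia. Psmb7, with the trypsin-like activity, was at 0 and 0.0897 FPKM in monocytes and at 2.07, 1.75 and 0.0496 FPKM in microglia. Psmb6 and Psmb7 held at most 3 counts in any monocyte library and 1 count in microglia library 3, so their signal came from microglia libraries 1 and 2. The fitted log2 fold changes were 0.16 ± 2.37 (SE) for Psmb6 and -1.79 ± 2.86 (SE) for Psmb7.

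The immunoproteasome subunits that can take the place of these 3, and that interferon induces, are given beside them although the rule leaves them out. Psmb8, which replaces Psmb5, was at 0 and 16.4 FPKM in monocytes and at 11.7, 9.12 and 29.5 FPKM in microglia, so it had no count in the same monocyte library as Psmb5. Psmb9, which replaces Psmb6, was at 0 and 0.126 FPKM in monocytes and at 19.4, 10.8 and 0.0928 FPKM in microglia. Psmb10, which replaces Psmb7, was at 0.343 and 0 FPKM in monocytes and at 15.1, 1.495 and 0.299 FPKM in microglia. All 3 overlapped between the groups, with log2 fold changes of 0.80 ± 1.77, -4.24 ± 2.60 and -0.14 ± 2.54 (SE) and adjusted p = 0.835, 0.504 and 0.982 by the edgeR quasi-likelihood test with Benjamini-Hochberg adjustment.

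**Figure D4:**
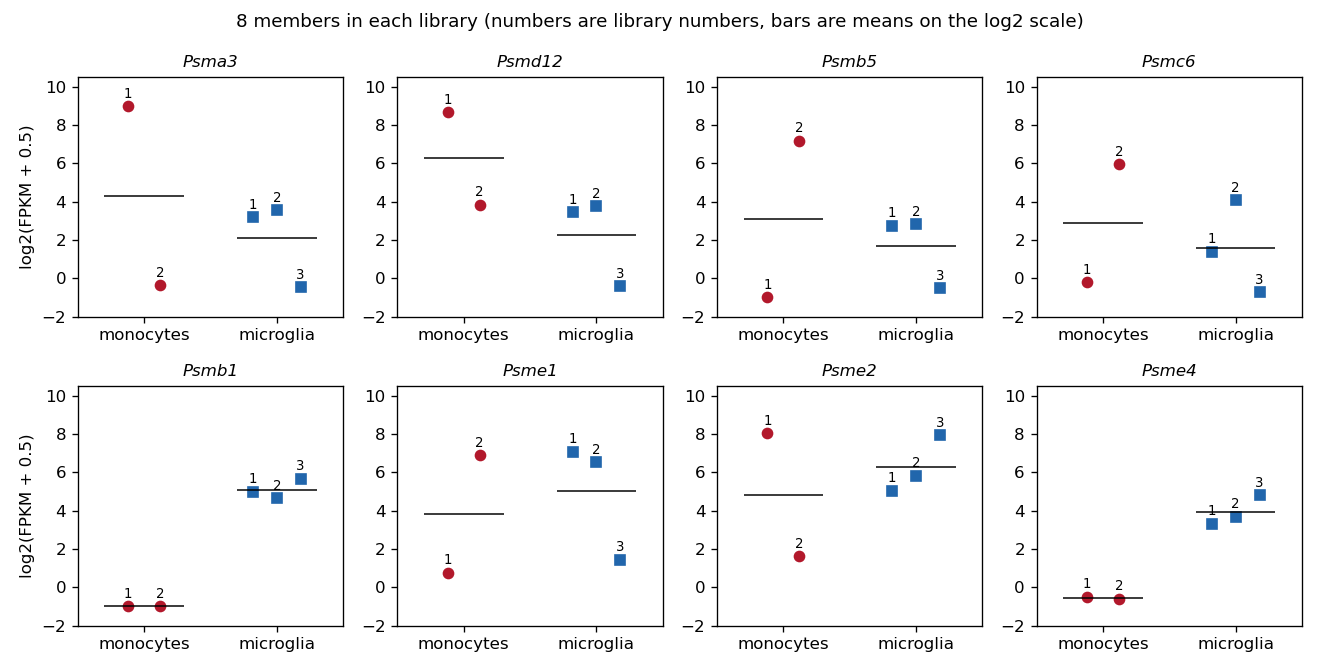
Levels of 8 members as log2(FPKM + 0.5) in the 2 monocyte libraries (red circles) and the 3 microglia libraries (blue squares), with library numbers at the points and means on the log2 scale as bars. Psma3 and Psme2 are high in monocyte library 1 and Psmb5, Psmc6 and Psme1 in monocyte library 2, while Psmb1 and Psme4 are low in both monocyte libraries and separate from all microglia libraries.

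In the base of the regulatory particle, the 6 ATPases (Psmc1 to Psmc6) form the ring that unfolds substrates. By CPM 3 of them were lower in both monocyte libraries, beside 48.0% of all genes tested. Psmc2 gave 2 and 15 counts in monocytes and 248, 557 and 470 counts in microglia. Its level was 0.116 and 0.458 FPKM in monocytes, against 7.43, 12.3 and 15.9 FPKM in microglia, so the groups were far apart by library totals. After TMM scaling Psmc2 was still lower in both monocyte libraries. Its log2 fold change under TMM was -2.44 ± 2.07 (SE; edgeR quasi-likelihood test, Benjamini-Hochberg adjusted p = 0.571). Psmc5 was at 0.210 and 0.330 FPKM in monocytes and at 37.6, 10.7 and 16.9 FPKM in microglia. Psmc3, Psmc4 and Psmc6 overlapped between the groups. Psmc6 (ENSMUSG00000021832, chr14:45329788-45349705) had the highest monocyte value of the 6, with 2 and 634 counts in monocytes and 22, 230 and 1 counts in microglia. That was 0.374 and 62.2 FPKM in monocytes and 2.12, 16.3 and 0.109 FPKM in microglia, with the highest value in monocyte library 2 and overlapping groups. Its log2 fold change was 4.59 ± 1.93 (SE; edgeR quasi-likelihood test, Benjamini-Hochberg adjusted p = 0.276) and -0.11 without monocyte library 2. Psmc1, Psmc3 and Psmc4 were between 0.112 and 0.771 FPKM in monocytes.

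The 11 non-ATPase subunits of the regulatory particle include the ubiquitin receptor Psmd4, the deubiquitinase Psmd14 and the scaffolds Psmd1 and Psmd2. By CPM 7 of the 11 were lower in both monocyte libraries, beside 48.0% of all genes tested. Psmd3, Psmd4, Psmd8 and Psmd13, the last not tested, had under 10 counts in microglia library 3. After TMM scaling only Psmd2, Psmd13 and Psmd14 of the 7 stayed lower in both. Psmd12, a lid subunit (ENSMUSG00000020720, chr11:107479484-107504362), was the only tested member higher in both. It gave 3726 and 238 counts in monocytes and 184, 312 and 4 counts in microglia, or 1090 and 36.5 CPM against 27.7, 34.6 and 0.679 CPM. Monocyte library 2 exceeded microglia library 2 by little, with exact 95% Poisson intervals of 32.0 to 41.5 CPM and 30.9 to 38.6 CPM that overlap and cover counting error only, and without mitochondrial genes in the totals the groups overlapped. The log2 fold change was 9.79 ± 2.98 (SE; edgeR quasi-likelihood test, Benjamini-Hochberg adjusted p = 0.107), and leaving out 1 library at a time gave 2.84 to 9.79.

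Psmd11, another lid subunit (ENSMUSG00000017428, chr11:80428615-80473248), was one of the 3 members with 10 or more counts in every library. It gave 10 and 2650 counts in monocytes and 685, 309 and 402 counts in microglia, or 0.458 and 63.7 FPKM against 16.2, 5.37 and 10.7 FPKM. The 2 monocyte libraries thus lay on either side of all 3 microglia libraries, and the log2 fold change was 3.71 ± 2.01 (SE; edgeR quasi-likelihood test, Benjamini-Hochberg adjusted p = 0.449) and -0.73 without monocyte library 2. Psmd1 was at 0.0806 and 10.9 FPKM in monocytes and at 6.12, 11.5 and 56.5 FPKM in microglia. Psmd7, the lid partner of Psmd14, was at 0.129 and 0.204 FPKM in monocytes and at 5.00, 16.5 and 55.0 FPKM in microglia. Psmd1 and Psmd7 were highest in microglia library 3, where most members were low. Psmd14 was at 0 and 0.544 FPKM in monocytes and at 3.64, 4.83 and 3.49 FPKM in microglia, close together within microglia. Psmd2, Psmd3, Psmd4, Psmd8 and Psmd13 held at most 3 counts in each monocyte library.

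The chaperones were sparse. Those that assemble the base of the regulatory particle, Psmd5, Psmd9 and Psmd10, held at most 1 count in any monocyte library and at most 2 in microglia library 3, against 29 to 156 counts in microglia libraries 1 and 2. Psmd9 had none in monocytes, at least 28.6-fold lower by library totals at the floor of 3 counts over both libraries. That bound covers counting error only and fell to 6.66-fold without microglia library 1. Genes in general were also far lower in monocytes with library totals, at a median log2 fold change of -4.73. The bound is therefore no measure of a loss particular to Psmd9. Psmd9 was one of 2 base chaperones lower in both, beside 48.0% of all genes tested. The most abundant, Psmd10, known as gankyrin, was at 0.199 and 0 FPKM in monocytes and at 15.5, 2.72 and 0 FPKM in microglia. Among the 4 chaperones of the core, Psmg4 was at 0.528 and 0 FPKM in monocytes, on 1 and 0 counts, and at 16.6, 3.80 and 0 FPKM in microglia. Psmg2 was seen in microglia library 2 only, with 22 counts, and Psmg1 held at most 5 counts in any library. No core chaperone separated the groups.

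Activators were the most abundant subcomplex in microglia. The 5 of them summed to 289 and 144 FPKM in monocytes and to 281, 327 and 630 FPKM in microglia libraries 1, 2 and 3. Psme1 and Psme2 encode the 2 subunits of the interferon-inducible activator that favours antigen peptides, and they lie close together at chr14:55578123-55581529 and chr14:55587441-55591113. Psme1 gave 1.19 and 118 FPKM in monocytes and 135, 92.6 and 2.23 FPKM in microglia. Psme2 gave 264 and 2.61 FPKM in monocytes and 32.5, 56.2 and 247 FPKM in microglia. The library with much of one thus had little of the other in 3 of the 5 libraries. The ratio of Psme1 to Psme2 FPKM was 0.00452 and 45.2 in monocytes and 4.17, 1.65 and 0.00902 in microglia, so monocyte library 1 and microglia library 3 were alike in this. Neither gene separated the groups, with a log2 fold change of 2.11 ± 1.90 (SE) for Psme1 and of 4.66 ± 2.32 (SE) for Psme2, and edgeR quasi-likelihood, Benjamini-Hochberg adjusted p = 0.590 and 0.402. Without monocyte library 1 the value for Psme2 was -4.09.

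Psme2b (chr11:48945354-48946190) is a retrogene copy of Psme2, so how counts were split between them is uncertain. It gave 66 and 122 counts in monocytes and 389, 1151 and 1654 counts in microglia, or 23.1 and 22.4 FPKM against 70.1, 152 and 335 FPKM. It was the member with the closest values in both monocyte libraries among those with 10 or more counts there, and it was lower in both by CPM, while its log2 fold change under TMM was 0.68 ± 1.87 (SE) and turned to -3.02 with library totals. Psme3, the activator of the nucleus, was at 0.695 and 0.677 FPKM in monocytes and at 33.7, 13.7 and 17.3 FPKM in microglia. Psme4, known in testis for opening the core to acetylated histones, gave 6 and 9 counts in monocytes and 525, 931 and 1364 counts in microglia, or 0.210 and 0.165 FPKM against 9.44, 12.3 and 27.6 FPKM. By library totals both were low and alike in the monocyte libraries and well apart from microglia, with Psme3 on 7 and 13 counts in monocytes. After TMM scaling Psme4 stayed lower in both monocyte libraries, while Psme3 overlapped between the groups. The log2 fold changes were -0.97 ± 1.92 (SE) for Psme3 and -2.69 ± 2.09 (SE) for Psme4, with edgeR quasi-likelihood, Benjamini-Hochberg adjusted p = 0.812 and 0.550. The inhibitor Psmf1 was at 0 and 0.0238 FPKM in monocytes, on 0 and 1 counts, and at 4.54, 8.17 and 0.580 FPKM in microglia, with a log2 fold change of -5.45 ± 3.00 (SE) and adjusted p = 0.453 in the same edgeR quasi-likelihood test with Benjamini-Hochberg adjustment. Psmc3ip, the gene that is no part of the proteasome, had no count in monocytes and 214, 3 and 0 counts in microglia.

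Other genes of the ubiquitin-proteasome pathway tag proteins with ubiquitin, carry them to the complex or control its genes. The list held 32 genes outside the members, of which 31 were found and 30 tested. The edgeR quasi-likelihood test called 0 higher and 0 lower in monocytes after adjustment, with 6 higher and 4 lower at an unadjusted p under 0.05, beside 8.52% and 3.35% of all genes. By limma-voom 0 were called in either direction, and by DESeq2 6 were called higher (Uba1, Ubqln1, Ubqln4, Usp14, Hspa4 and AI314180) and 2 lower (Ddi2 and Ube3c), beside 10.1% and 1.03% of all genes. Without monocyte library 1 edgeR called Usp14 higher, and without monocyte library 2 it called Hspa4, Uba1 and Ubqln1 higher, where 2.61% and 2.51% of all genes were called. Their median log2 fold change was -0.74, and 17 of the 30 tested (56.7%) were lower in both monocyte libraries by CPM, beside 48.0% of all genes tested.

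Here too single libraries carried the signal. Uba1, the main ubiquitin-activating enzyme, was at 199 and 2.29 FPKM in monocytes and at 41.3, 28.3 and 18.9 FPKM in microglia. Hspa4, a co-chaperone of heat shock proteins, was at 229.7 and 0.972 FPKM in monocytes and at 53.5, 60.8 and 28.5 FPKM in microglia. Usp14, the deubiquitinase bound to the regulatory particle, was at 0 and 106 FPKM in monocytes and at 4.72, 8.13 and 2.84 FPKM in microglia. In each of these the groups overlapped, with monocyte library 1 highest for Uba1 and Hspa4 and monocyte library 2 for Usp14. Ubqln1, a shuttle that carries ubiquitinated proteins to the proteasome, was also highest in monocyte library 1, at 51.1 and 0.208 FPKM in monocytes and at 14.3, 9.74 and 7.14 FPKM in microglia. Adrm1, a ubiquitin receptor of the regulatory particle, was at 0 in both monocyte libraries and at 1.96, 0.224 and 24.8 FPKM in microglia. Txnl1, a thioredoxin-like protein bound to the regulatory particle, was at 0 and 0.240 FPKM in monocytes and at 6.89, 8.49 and 169 FPKM in microglia. Adrm1 and Txnl1 were lower in both monocyte libraries and highest in microglia library 3. The adjusted p of these 6 genes was 0.211 to 0.280 by the edgeR quasi-likelihood test with Benjamini-Hochberg adjustment. Nfe2l1, the factor that restores proteasome transcripts when the complex fails, was at 0.430 and 9.45 FPKM in monocytes and at 64.9, 8.47 and 15.4 FPKM in microglia. Pomp, the maturation factor of the core, was at 0.224 and 0.589 FPKM in monocytes and at 27.0, 23.8 and 24.0 FPKM in microglia, lower in both and even within microglia.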

How the data were processed

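RNA of 2 monocyte and 3 microglia libraries was sequenced after cDNA amplification. The authors aligned reads, cleared of adaptors and low quality, to the GRCm38 genome using STAR (version 2.5.2a, per the submitters' processing notes) and deposited counts of read pairs per gene on GENCODE vM12. The deposited FPKM were scaled by the authors per kilobase and library total, and a check against the counts found no further factor. A deposited log2 CPM table, and columns holding the authors' own fold changes and p-values, were not used, nor were 4 columns of other samples in each of 3 tables.

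Monocytes were compared with microglia by edgeR 4.0.16 (R 4.3.3), with TMM factors, filterByExpr and Benjamini-Hochberg adjustment over 10105 genes. The SE given with an edgeR log2 fold change is approximate. It is the absolute fold change on the log2 scale divided by the square root of the quasi-likelihood F statistic. Alternatives were limma-voom (limma 3.58.1), DESeq2 1.42.0, RLE factors, library totals, a CPM minimum of 1, no filter, and leaving out each library. Tables were made with Python 3.11.15, pandas 2.3.3, numpy 2.4.6 and scipy 1.17.1, and figures with matplotlib 3.10.9. The tools were run on simulated data, with an outcome that is not reported here. The common dispersion fitted by edgeR, its measure of spread between libraries of a group, was 1.57. The power to call a difference at that spread is not given. Coordinates are from GENCODE vM21.

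The members and lists were chosen with earlier results of these data known. Full values are given for the catalytic subunits, the 8 members with the smallest p, the most abundant member of each subcomplex by mean FPKM, members higher in both monocyte libraries, the 4 most abundant members lower in both, and the 6 pathway genes with the smallest p. Other genes with values were chosen after their values were seen. The pathway gene Paaf1 was not analysed here, and values of some marker genes are not reported here. For a count of 0 the limit was 3 counts.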

Additional observations from a re-analysis of the deposited data

How the results depend on the processing

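Members called higher in monocytes numbered 0 with edgeR, 1 with limma-voom, 5 with DESeq2 and 0 to 2 when each library was left out (Psmb5 without monocyte library 1, Psma3 and Psmd12 without monocyte library 2); none was called lower under any of these. Of the pathway genes DESeq2 called 6 higher and 2 lower, and leaving out a library gave 0 to 3 higher. With library totals the median log2 fold change was -4.29 over the members and -4.73 over all genes; leaving out a library gave -2.76 to -0.24 and -3.51 to -1.01. Members lower in both monocyte libraries numbered 11 after TMM scaling, 17 without mitochondrial genes (44.0% of all genes) and 21 to 31 with a library left out. The 31 were without microglia library 3, where 75.5% of all genes were lower. Members higher in both numbered 1 without mitochondrial genes and 2 to 6 with a library left out (6 without monocyte library 1, 4 without monocyte library 2). These member counts include untested members, while the shares are over the genes tested. The ratio of summed FPKM was 0.657 to 1.68 with a library left out. Other scalings gave 1.51 (CPM), 1.85 (CPM without mitochondrial genes) and 0.976 (share of the FPKM of all genes). The FPKM ratio was 0.27 without the 3 highest members of each library and 0.157 without those of the monocyte libraries. Both selections bring about the fall in part and were chosen after seeing the data. The log2 fold change turned round for Psmb6 (-0.60 by limma-voom, -4.88 with library totals, -0.85 with no filter), Psmb7 (0.01 by limma-voom), Psmg4 (0.51 by limma-voom, 0.15 by DESeq2, 0.04 with RLE factors) and Psme2b (-3.02 with library totals, -0.31 with no filter). Leaving out a library gave log2 fold changes of -8.83 to 0.47 for Psmb6, -2.55 to 10.32 for Psma3, -4.09 to 6.66 for Psme2, -1.62 to 1.97 for Psme2b, -7.21 to 7.10 for Psmb5, -0.11 to 6.57 for Psmc6, -0.73 to 4.34 for Psmd11, -7.11 to 0.61 for Psmg4, -3.79 to 6.27 for Ubqln1, -1.82 to 6.70 for Uba1, -3.78 to 6.15 for Hspa4 and -10.48 to 6.16 for Usp14. The cause was not tested. Where 1 monocyte library is left out, the other is assumed to vary like the microglia. No paired analysis was possible because the groups share no replicate number. With 5 to 15 members at 10 or more counts in monocytes, most member values there rest on few reads.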
